A study of Sus scrofa with 20 samples.

Results

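The transcripts described here were those that stood far above the control in LLC-PK1 cells in which polycystin 1 (PC1) or polycystin 2 (PC2) was silenced, with or without silencing of MRTF-A. A transcript was a member when its mean over the 20 RNA-Seq libraries was at least 1.3 CPM (the estimated count divided by the library total, times 1000000), when its mean log2(CPM + 0.5) lay at least 2 above that of the control in each of the 4 silenced groups, and when every silenced library but siPC1 replicate 1 lay above every control library. Of the 46295 Ensembl transcripts in the table, 20292 reached the mean CPM and 192 met every step. These values chose the members, so the distance from the control is given as a description and was not tested.

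LLC-PK1 is an epithelial line from the pig proximal tubule, used here as a single clone. By the labels, 4 libraries came from control cells, which received a non-related siRNA (siNR), 5 from cells given an siRNA against PC1 (siPC1), 3 from cells given an siRNA against PC2 (siPC2), 4 from siPC1+siMRTF-A cells and 4 from siPC2+siMRTF-A cells. The study's legend for the RNA-Seq design gives 3, 4, 4, 5 and 4 in the same order, and the labels were followed here. According to the study's methods, the cells were starved of serum for the last day and harvested on the second day after transfection, and siPC1 was used at a higher concentration than siPC2. The control siRNA was used at a concentration above that of siPC1 or siPC2 alone. No group received siMRTF-A alone. The combined groups received an additional siRNA. According to the methods, control siRNA was matched in concentration within each experiment. Another legend, which covers RNA-Seq values of an integrin gene, describes siMRTF-A or control siRNA given beside the siRNA against PC1 or PC2. That legend and the one for the RNA-Seq design give different concentrations of siMRTF-A. The design legend does not say whether control siRNA made up the total in siPC1 and siPC2. If it did not, the silencing of MRTF-A and a larger amount of siRNA cannot be told apart within an arm. Nothing in the labels says whether the libraries of a group came from separate cultures, and p-values then measure only the spread between these libraries.

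PC1 and PC2 form a complex in the membrane of tubular cells and of their primary cilium, and loss of either causes autosomal dominant polycystic kidney disease. Myocardin-related transcription factor A (MRTF-A) is held in the cytosol by monomeric actin. When actin polymerizes it enters the nucleus, where it joins serum response factor to drive genes of the cytoskeleton and of the matrix. The table lists transcripts by identifier only. The gene tables used here pair gene identifiers with symbols, and 0 of the transcript identifiers matched them, so no member is given a gene name, a function or a sequence. The knockdown of the targets and the markers of the proximal tubule were not analysed here. Of the 192 members, 4 are given by identifier and the others by counts and ranges.

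All 4 silenced groups were measured against the same 4 siNR libraries. Of the 20292 transcripts with the required mean CPM, 2.48% lay at least 2 above siNR in siPC1, 2.02% in siPC2, 2.8% in siPC1+siMRTF-A and 2.17% in siPC2+siMRTF-A. At least 1 silenced group met this limit for 837 transcripts, and all 4 groups met it for 206. The separation of the libraries, which 20.3% of the transcripts showed whatever the size of the difference, removed 14 of the 206. The members were thus 0.946% of the transcripts considered. The smallest of the 4 differences was 2.01 in the member closest to the limit and 1.996 in the nearest separated transcript outside it. In 37 members the smallest difference was below 2.2, in 57 it was at least 3 and in 17 at least 4, while 53 separated transcripts fell between 1.8 and 2. The differences ran across the limit without a gap.

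**Figure D1:**
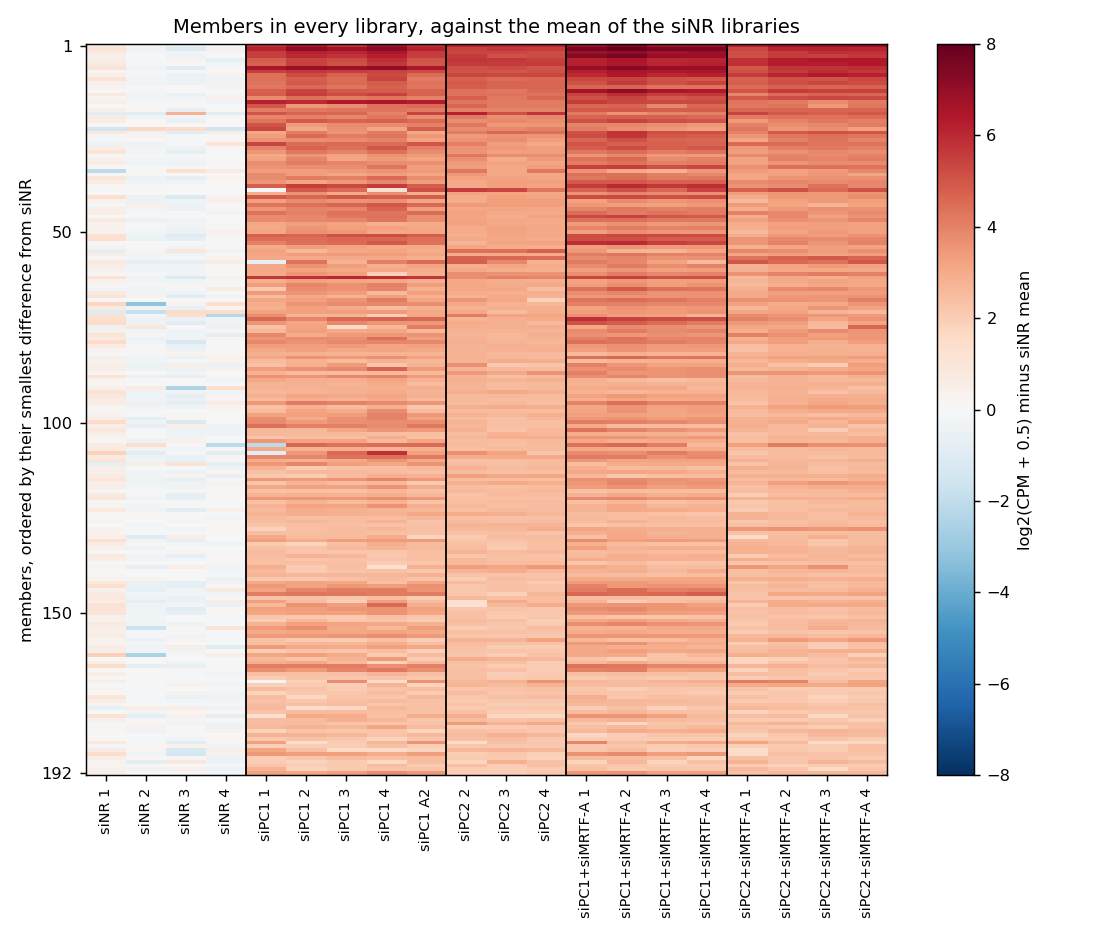
Each row is 1 of the 192 members, ordered from the largest to the smallest of their smallest differences from siNR, each column is 1 library, and the colour gives log2(CPM + 0.5) minus the mean of the 4 siNR libraries. The 16 silenced libraries are red over nearly all rows, most deeply in the siPC1+siMRTF-A columns, and siNR replicate 1 is the reddest of the siNR columns.

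The members took a small part of the control libraries and a larger part of every silenced library. In the siNR libraries they held 0.434% ± 0.133 (SD, n = 4) of all estimated counts, from 0.331% to 0.626%. In siPC2 they held 2.81% ± 0.0938 (SD, n = 3), in siPC2+siMRTF-A 3.23% ± 0.290 (SD, n = 4), in siPC1 4.28% ± 0.381 (SD, n = 5) and in siPC1+siMRTF-A 4.96% ± 0.364 (SD, n = 4). The libraries of siPC1, from 3.87% to 4.75%, overlapped those of siPC1+siMRTF-A, from 4.69% to 5.50%, but not those of siPC2, from 2.73% to 2.91%. These shares are dominated by a few members, since the 10 with the most counts held 52.2% of the members' summed CPM and the first of them 16.2%. The mean CPM of a member ranged from 1.76 to 5196, with 54 members at 100 CPM or more and 46 under 10. CPM is not corrected for transcript length, so levels are not compared between members.

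Counted member by member, the median difference from siNR on the log2(CPM + 0.5) scale was 3.14 in siPC1 (quartiles 2.54 and 3.78), 2.76 in siPC2 (2.34 and 3.18), 3.46 in siPC1+siMRTF-A (2.79 and 4.17) and 2.87 in siPC2+siMRTF-A (2.50 and 3.56). The largest differences were 6.77, 6.04, 7.70 and 6.60 in the same order. Over all 20292 transcripts the median differences were 0.13, 0.16, 0.15 and 0.19. The members are to be read against an offset of about this size, which holds for CPM scaled to library totals. With TMM-scaled totals the rule found 169 transcripts. Whether the offset reflects the scaling or a rise of many transcripts was not tested. The siPC1+siMRTF-A group was the highest of the 4 for 119 members and the lowest for 12. The siPC2 group was the lowest for 108 members and the highest for 22. The siPC1 group was the highest for 30 and the lowest for 40, and siPC2+siMRTF-A the highest for 21 and the lowest for 32. The range over the groups had a median of 0.89 on the log2 scale. It lay under 0.6 in 62 members, over 1 in 82 and over 2 in 12. The members were chosen by these same differences from siNR, with a common limit in all 4 groups. Ranks and ranges were not counted over all transcripts, and the spread between libraries alone gives some range. These counts therefore describe the members and do not by themselves show that the groups differed.

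**Figure D2:**
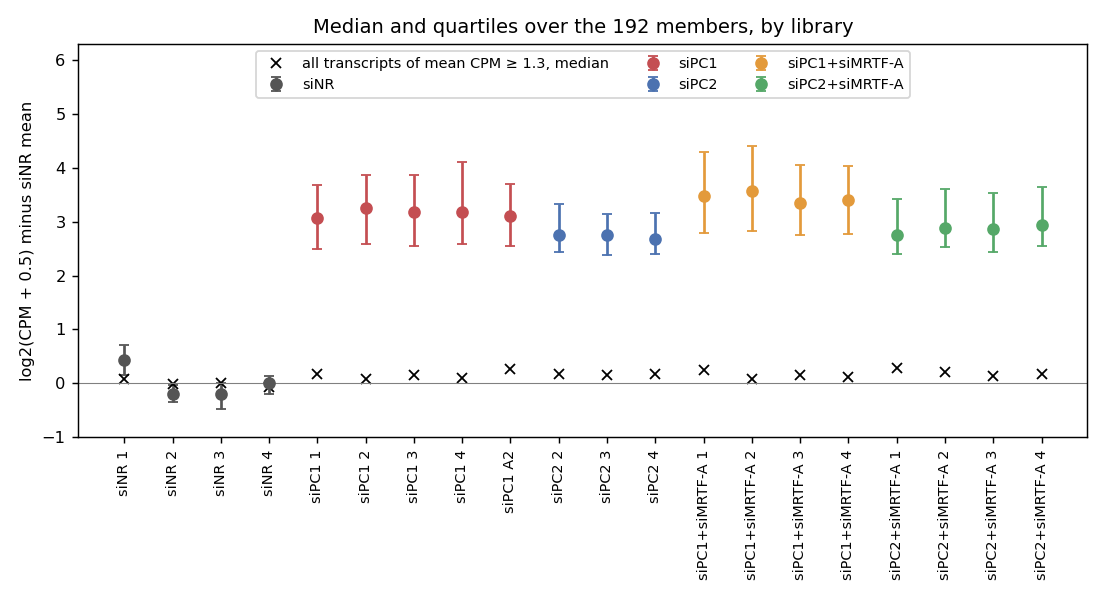
Dots give the median over the 192 members of log2(CPM + 0.5) minus the siNR mean in each library, bars run from the lower to the upper quartile, and crosses give the median over all transcripts with a mean CPM of at least 1.3. The siPC2 libraries sit between 2.68 and 2.75, the siPC1 libraries between 3.07 and 3.25 and the siPC1+siMRTF-A libraries between 3.35 and 3.57, while siNR replicate 1 stands at 0.43.

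The control libraries were not alike for these transcripts. Relative to the siNR mean, the median member stood at 0.43 in siNR replicate 1, -0.19 in replicate 2, -0.20 in replicate 3 and 0.00 in replicate 4, against 0.08, -0.01, 0.00 and -0.07 for all transcripts. Replicate 1 was the highest siNR library, or level with the highest, for 144 of the 192 members (75%) and for 45.0% of all transcripts with the required mean CPM. The 144 include the 9 members at a count of 0 in all 4 siNR libraries. The median SD of a member over the siNR libraries was 0.42 on the log2 scale, compared with 0.18 for all transcripts. The rule chose transcripts that were low in siNR relative to the silenced groups. The transcripts compared were not matched to the members on their siNR level, so the 2 values are not a like comparison. In the silenced groups the median SD of the members was closer to that of all transcripts, with 0.25 and 0.23 in siPC1, 0.13 and 0.14 in siPC2, 0.16 and 0.15 in siPC1+siMRTF-A and 0.22 and 0.15 in siPC2+siMRTF-A. Without siNR replicate 1 the rule found 242 transcripts, 190 of them among the 192. Without siNR replicate 2, 3 or 4 it found 188, 188 and 189.

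The members also deviated together from library to library. The rule used no correlation between members, but its separation step used the values of single libraries. After the mean of its group was taken from each library, the mean correlation (Pearson's r) between pairs of members was 0.254 over the 20 libraries, compared with 0.0388 between pairs of all transcripts with the required mean CPM. Within the 16 silenced libraries it was 0.156 against 0.0312, and without siPC1 replicate 1 it was 0.164 against 0.0382. Within the 4 siNR libraries it was 0.403 over the 183 members that varied there, against 0.0587. The members share these libraries and their depth, and the values describe these libraries only.

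The separation from the control was wide for most members. On the log2(CPM + 0.5) scale, the gap between the highest siNR library and the lowest silenced library, siPC1 replicate 1 left out, had a median of 1.74 and ranged from 0.02 to 5.13, and 171 members had a gap over 1. All 192 members passed edgeR's filter on low counts, and all had a mean normalized count of at least 50. In the control, 150 members were detected in every siNR library, 16, 11 and 6 were at a count of 0 in 1, 2 and 3 of them, and 9 were at 0 in all 4. For these 9 the fold is a lower bound. Set against 3 counts over the summed siNR totals, which is 0.0181 CPM, the lowest of their 4 group means was at least 88.2-fold higher in each of them. In 1 of the 9, siPC1 replicates 1 and 4 had 0 and 0.667 CPM and the other 3 siPC1 libraries 11.2, 14.4 and 17.2 CPM, so its siPC1 mean rests on part of the libraries. With these members at their bound, the median differences from siNR became 3.19 in siPC1, 2.76 in siPC2, 3.47 in siPC1+siMRTF-A and 2.87 in siPC2+siMRTF-A.

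The siPC1 replicate 1 library, which the separation ignored, was the shallowest, with a total estimated count of 4421001, so that 1.3 CPM rested on 5.75 counts there. It lay above every siNR library for 187 members and was at 0 for the other 5. The other 4 siPC1 libraries had means between 4.03 and 48.4 CPM for these 5 members, whereas 3 counts correspond to 0.679 CPM in replicate 1, so the count of 0 lies below what these means would give. None of the other 15 silenced libraries had a member at 0. A log2 SD over 1 within a silenced group was seen in 6 members, and in 4 when replicate 1 was left out. Salmon divides reads that fit several transcripts by estimation. Leaving out libraries at 0, the deposited count was fractional in every library in 132 members (68.8%) and in 73.2% of all transcripts with the required mean CPM, and exactly whole in every library in 3 members (1.56%) and in 1.42%. A change of a whole gene and a change in how its reads were divided cannot be told apart for a single transcript.

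The member with the largest smallest difference was ENSSSCT00000058978.3. Its values were 0.909, 0.366, 0.138 and 0.474 CPM in siNR replicates 1 to 4, and 51.1, 77.2, 48.7, 99.8 and 55.02 CPM in siPC1 replicates 1, 2, 3, 4 and A2. It had 62.6, 59.0 and 61.6 CPM in siPC2 replicates 2 to 4. With siMRTF-A it had 98.5, 143.9, 86.5 and 99.7 CPM in siPC1+siMRTF-A replicates 1 to 4 and 67.4, 94.2, 97.4 and 107.1 CPM in siPC2+siMRTF-A replicates 1 to 4. The control libraries, which held 74 counts of it in all, were far below every silenced library. The siPC1 libraries overlapped those of every other silenced group, whereas all siPC2 libraries lay below all libraries with siMRTF-A. The mean CPM was 141-fold the siNR mean in siPC1, 129-fold in siPC2, 227-fold in siPC1+siMRTF-A and 194-fold in siPC2+siMRTF-A. When siMRTF-A was added, its log2 fold change was 0.70 (SE 0.25, edgeR adjusted p = 0.108) after siPC1 and 0.58 (SE 0.29, edgeR adjusted p = 0.380) after siPC2, so neither was called. The former was called without siPC1 replicate 4 (log2 fold change 0.91, edgeR adjusted p = 0.0226).

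The next member in this order was ENSSSCT00000062500.2. It had 24.4, 8.25, 5.02 and 14.98 CPM in siNR replicates 1 to 4 and 863, 1654, 1276, 1734 and 855 CPM in siPC1 replicates 1, 2, 3, 4 and A2. In siPC2 replicates 2 to 4 it had 507, 578 and 547 CPM. With siMRTF-A it had 2242, 3252, 2200 and 2185 CPM in siPC1+siMRTF-A and 465, 784, 843 and 808 CPM in siPC2+siMRTF-A. The siPC1+siMRTF-A libraries lay above those of every other group and the siPC1 libraries above those of the siPC2 arm, whose groups overlapped each other. It was higher in siPC1 than in siPC2 by a log2 fold change of 1.26 (SE 0.39, edgeR adjusted p = 0.0251) and higher in siPC1+siMRTF-A than in siPC2+siMRTF-A by 1.81 (SE 0.37, edgeR adjusted p = 0.00229). The first of these calls was lost without siPC1 replicate 2 or 4 (edgeR adjusted p = 0.0528 and 0.0504) and without siPC2 replicate 2, 3 or 4 (edgeR adjusted p = 0.0888, 0.0671 and 0.0784), as well as without both libraries of lowest total, siPC1 replicate 1 and siPC2 replicate 2 (edgeR adjusted p = 0.057). On adding siMRTF-A to siPC1 its log2 fold change was 0.96 (SE 0.34, edgeR adjusted p = 0.0988), which DESeq2 called (adjusted p = 0.0413).

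**Figure D3:**
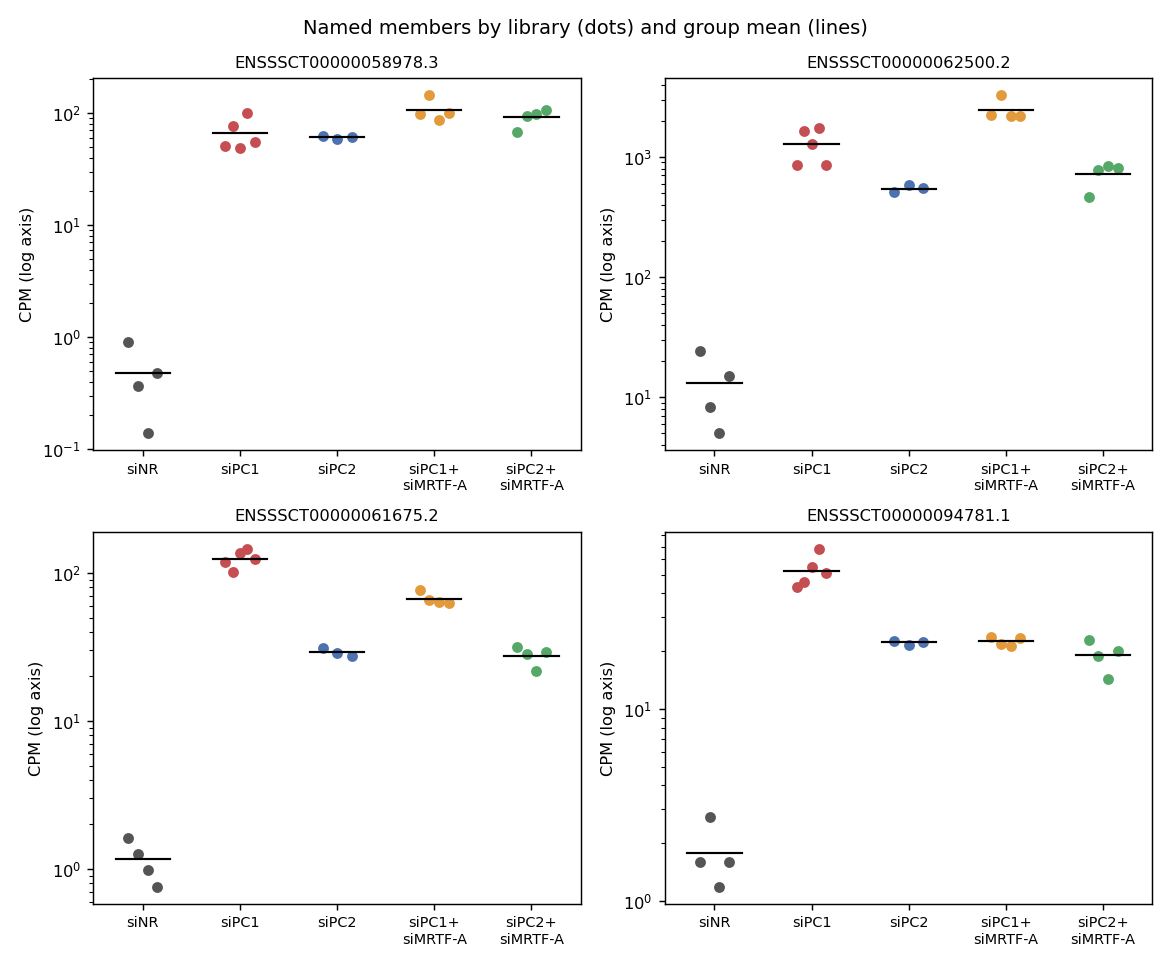
CPM of the 4 members given by identifier, on a log axis, with 1 dot per library and a line at the mean of each group. All silenced libraries lie above the siNR libraries, the upper pair is highest in siPC1+siMRTF-A, and the lower pair is highest in siPC1.

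The rule compared each silenced group with siNR and set the same lower limit in each. The silenced groups were then compared with each other, which the rule did not use, with edgeR's quasi-likelihood test over 27702 transcripts. To be called, a transcript had to pass 0.05 after Benjamini-Hochberg adjustment, differ by more than 0.6 on the log2 scale in either direction and reach a mean of 50 normalized counts. In these 5 comparisons 92 members (47.9%) were called at least once and 100 were not called, while 14.1% of all tested transcripts were called at least once. All members reached the mean of 50 normalized counts, whereas the filter for testing did not require it. Tested transcripts below this mean could not be called. They remain in the shares and correlations given for all tested transcripts, and they lower the shares called.

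The first question was how the members changed on silencing MRTF-A. The rule kept only transcripts that stayed at least 2 above siNR in both groups with siMRTF-A. A transcript that fell back to the control level with siMRTF-A could therefore not be a member. The number of members that fell thus cannot tell how far the rises over siNR depended on MRTF-A. More of them rose than fell when it was silenced as well. On adding siMRTF-A to siPC1, 34 of the 192 members (17.7%) were called higher and 3 (1.56%) lower, whereas 1.18% of all tested transcripts were called higher and 1.1% lower. The rises called ranged from 0.66 to 1.79 on the log2 scale, with a median of 0.98. The median log2 fold change was 0.24 over the members and 0.01 over all tested transcripts, and 147 members (76.6%) had a positive value, compared with 51.5% of all. The median SE of a member was 0.22, so single changes of the size of the median lie within the error.

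On adding siMRTF-A to siPC2, 4 members (2.08%) were called higher and 0 lower, against 0.664% and 0.924% of all tested transcripts. At an unadjusted p under 0.05, edgeR gave 26 members higher and 5 lower, with 7.53% and 7.34% of all tested transcripts. DESeq2 called 10 members higher and 2 lower, with 1.07% and 1.2% of all. The median log2 fold change was 0.18 over the members and 0.02 over all, and 137 members (71.4%) had a positive value, compared with 52.3%. The count of 4 rested on single libraries, with 7 members called without siNR replicate 1 and 1 without siPC2 replicate 2, 3 or 4 or siPC2+siMRTF-A replicate 2, 3 or 4. Without siNR replicate 1 or 3, 1 member was called lower.

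The arms share no library. Of the 34 members called higher after siPC1, 33 (97.1%) had a positive log2 fold change after siPC2, with a median of 0.41. Of all 327 transcripts called higher after siPC1, 91.1% had a positive value after siPC2, with a median of 0.40. Called higher in both arms were 2 members (5.88% of the 34 and 50% of the 4) and 55 of all tested transcripts (16.8% of the 327 and 29.9% of the 184). The direction after siPC2 was thus shared by most transcripts called after siPC1, members or not. Both changes were positive in 116 members and negative in 24, so that 72.9% had the same sign, compared with 61.6% of all tested transcripts. Across the 192 members the changes in the arms correlated with a Pearson's r of 0.513 and a Spearman's rho of 0.4998, and across all tested transcripts with 0.0387 and 0.261. These are correlations across transcripts, which are not independent replicates. An interaction term tested whether adding siMRTF-A acted differently in the arms, with the change after siPC2 subtracted from that after siPC1. edgeR called 1 member lower and 0 higher, against 0.13% and 0.166% of all tested transcripts. The median interaction was 0.14 over the members and -0.00 over all, and 130 members (67.7%) had a positive value, compared with 49.4% of all. At an unadjusted p under 0.05, edgeR gave 17 members higher and 7 lower, with 4.64% and 4.68% of all. DESeq2 called 6 members higher and 4 lower, with 0.469% and 0.509% of all, so the calls differed between the tools. The edgeR count of 1 became 3 without siNR replicate 1 or 4, 2 without siPC1 replicate 2 or siPC2+siMRTF-A replicate 3, and 0 without any other silenced library. Without siNR replicate 2 or 3 it was 1 again, but a different member. In the positive direction 1 member was called without siNR replicate 3 or siPC1 replicate 4.

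**Figure D4:**
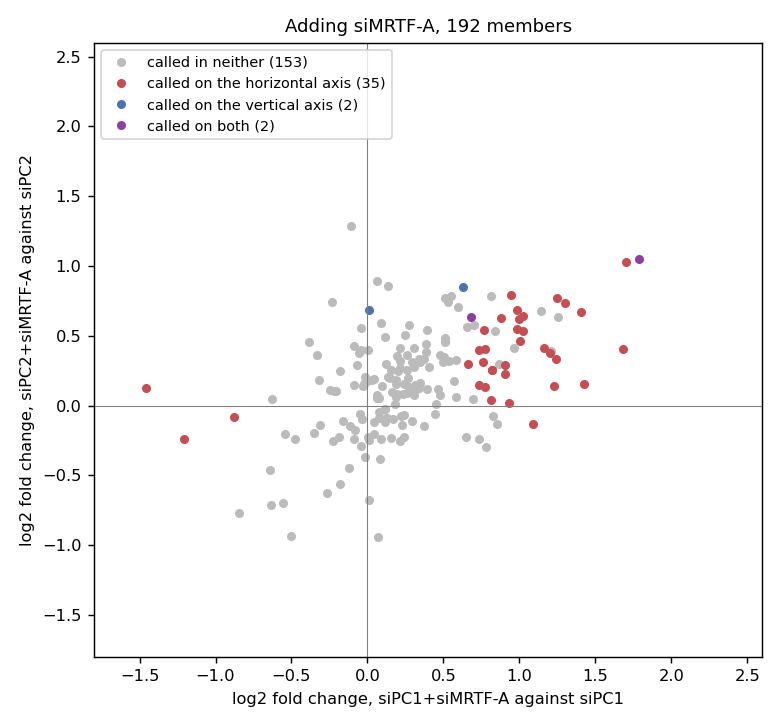
Each dot is 1 of the 192 members, with its edgeR log2 fold change after siMRTF-A was added to siPC1 on the horizontal axis and to siPC2 on the vertical axis, coloured by the calls. Of the members, 116 lie where both are positive and 24 where both are negative, and the 3 members called lower after siPC1 stand apart at the left, between -1.46 and -0.88.

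Of the 3 members that fell, the 2 with the lowest adjusted p are given by identifier. ENSSSCT00000061675.2 had 1.63, 1.27, 0.988 and 0.758 CPM in siNR replicates 1 to 4, 118, 102, 136, 145 and 124 CPM in siPC1 replicates 1, 2, 3, 4 and A2, and 77.0, 65.5, 63.7 and 62.5 CPM in siPC1+siMRTF-A replicates 1 to 4. It had 30.9, 28.9 and 27.4 CPM in siPC2 replicates 2 to 4 and 31.6, 28.3, 21.8 and 29.1 CPM in siPC2+siMRTF-A replicates 1 to 4. The siPC1 and siPC1+siMRTF-A libraries did not overlap, both lay above all siPC2 libraries, and the groups of the siPC2 arm overlapped. It fell by 0.88 on the log2 scale on adding siMRTF-A to siPC1 (SE 0.12, edgeR adjusted p = 0.000141), and in the siPC2 arm the log2 fold change was -0.09 (SE 0.14, edgeR adjusted p = 0.917). The interaction of -0.79 (SE 0.18, edgeR adjusted p = 0.0587) was not called by edgeR and was called by DESeq2 (-0.80, adjusted p = 0.00068). edgeR called it without siNR replicate 1 or 4, siPC1 replicate 2 or siPC2+siMRTF-A replicate 3, with adjusted p of 0.0354, 0.0456, 0.0495 and 0.0337.

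ENSSSCT00000094781.1 had 1.59, 2.75, 1.18 and 1.59 CPM in siNR replicates 1 to 4 and 43.2, 45.9, 54.6, 68.0 and 51.0 CPM in siPC1 replicates 1, 2, 3, 4 and A2. With siMRTF-A it had 23.7, 21.8, 21.2 and 23.5 CPM in siPC1+siMRTF-A. It had 22.5, 21.6 and 22.4 CPM in siPC2 and 22.8, 18.8, 14.3 and 20.04 CPM in siPC2+siMRTF-A. With siMRTF-A its libraries in the siPC1 arm overlapped those of siPC2, and all silenced libraries stayed above every siNR library. It fell by 1.21 on the log2 scale on adding siMRTF-A to siPC1 (SE 0.18, edgeR adjusted p = 0.000287). The change after siPC2 was -0.24 (SE 0.20, edgeR adjusted p = 0.693) and the interaction of -0.97 (SE 0.27, edgeR adjusted p = 0.1402) was called by DESeq2 only (-0.97, adjusted p = 0.0113). All 3 members that fell after siPC1 were also called higher in siPC1 than in siPC2, as were 15.03% of all 306 transcripts that fell. The siPC1 libraries are the higher group in both of these comparisons, so the calls are not independent.

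The second question was whether siPC1 and siPC2 raised the members alike. Because siPC1 was used at the higher concentration, the target silenced and the siRNA given cannot be told apart in this comparison. More members were higher with siPC1. Of the 192, 52 (27.1%) were called higher in siPC1 than in siPC2 and 5 (2.6%) lower, whereas 5.6% of all tested transcripts were called higher and 5.78% lower. The 52 differences ranged from 0.65 to 2.21 on the log2 scale, with a median of 1.16. The median log2 fold change was 0.29 over the members and 0.00 over all tested transcripts, and 139 members (72.4%) had a positive value, compared with 50% of all. The count of 5 became 3 without siPC1 replicate 3 or siPC2 replicate 4 and 2 without siPC2 replicate 2.

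The difference was also present when MRTF-A was silenced in both arms. Between siPC1+siMRTF-A and siPC2+siMRTF-A, 57 members (29.7%) were called higher in the former and 1 (0.521%) in the latter, compared with 2.59% and 2.92% of all tested transcripts. The 57 differences ranged from 0.63 to 2.41, with a median of 1.24, and the median over all 192 members was 0.47, compared with -0.00 over all tested transcripts. The count of 1 became 2 without siNR replicate 3. These libraries are not those of the comparison without siMRTF-A, and 41 members were called higher with siPC1 in both (78.8% of the 52 and 71.9% of the 57). Among all tested transcripts 563 were called so in both, which is 36.3% of 1552 and 78.4% of 718. Of the 52 members, 51 (98.1%) had a positive value with siMRTF-A, and of the 1552 transcripts 97.9% had one. Over the members the log2 fold changes correlated with a Pearson's r of 0.778 and a Spearman's rho of 0.775, and over all tested transcripts with 0.184 and 0.534. The same sign was found in 81.3% of the members and in 74.4% of all.

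**Figure D5:**
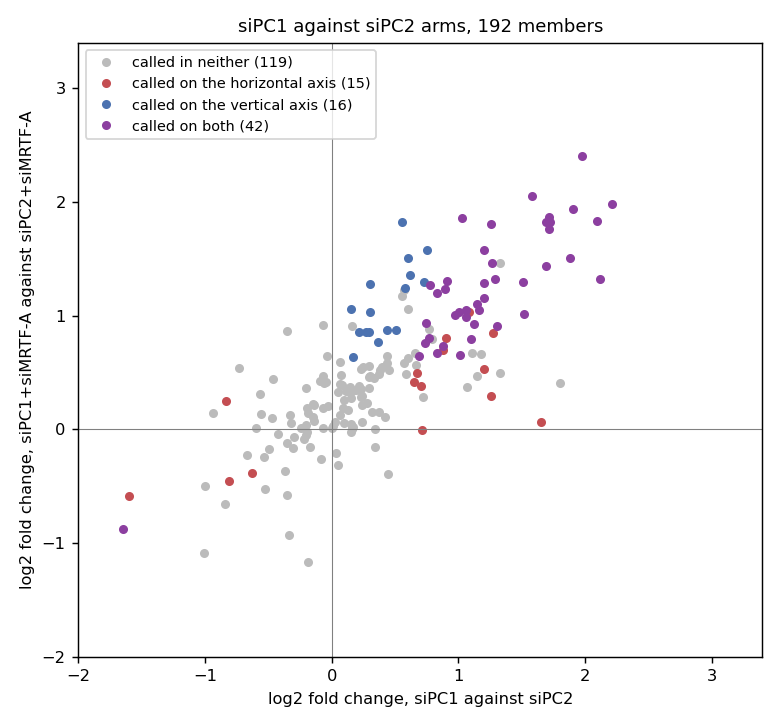
Each dot is 1 of the 192 members, with its edgeR log2 fold change of siPC1 against siPC2 on the horizontal axis and of siPC1+siMRTF-A against siPC2+siMRTF-A on the vertical axis, coloured by the calls. Most dots lie where both are positive, with 42 members called on both axes, 41 of them higher in the siPC1 arm.

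Of the 34 members that rose on adding siMRTF-A to siPC1, 5 (14.7%) were among those higher in siPC1 than in siPC2, and 14 (41.2%) were higher in siPC1+siMRTF-A than in siPC2+siMRTF-A. For all 327 transcripts that rose the shares were 9.48% and 20.2%. The siPC1+siMRTF-A libraries are the higher group in both comparisons behind the 14, and siPC1 is the lower group in 1 and the higher in the other of those behind the 5.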

How the data were processed

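LLC-PK1 cells were sequenced as poly(A) RNA in 20 libraries of 5 groups. Per the labels and the study's methods, the authors trimmed the reads with Trim Galore and quantified transcripts with Salmon 0.14.1 against the Ensembl coding sequences of Sscrofa11.1. They deposited these estimated counts without normalization, so reads in untranslated regions were not counted. Totals ranged from 4421001 to 71007731. Precision is that of counting at these depths, and bulk libraries do not tell more cells with a transcript from more RNA per cell. No pair of libraries within a group agreed within sampling noise (chi-square per degree of freedom at least 9.34 over 31 pairs).

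CPM were computed from the unrounded counts and column totals, with a pseudocount of 0.5 on the log2 scale. Counts were rounded and fitted in R 4.3.3 with edgeR 4.0.16 (filterByExpr, TMM factors, 1 quasi-likelihood model of the 5 groups), with each SE taken as the absolute log2 fold change over the square root of F. DESeq2 1.42.0 (the study used another version of DESeq2), library totals, another filter, no fold threshold, a replicate block and each library left out were alternatives, and the procedure was tested on simulated data. The members and tests were chosen with earlier results of these data known. The identifiers printed are the 2 members with the largest smallest difference from siNR and the 2 with the lowest adjusted p among those called lower on adding siMRTF-A.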

Additional observations from a re-analysis of the deposited data

Results flagged for a closer look

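In ENSSSCT00000062500.2, a library stood apart from its group in 2 cases, by Dixon's test at the 95% level. The value of 3252 CPM in siPC1+siMRTF-A replicate 2 was above the other 3 libraries, and 465 CPM in siPC2+siMRTF-A replicate 1 was below the other 3. Over 24 sets of a group and a value such a test marks about 1 in 20 by chance.

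edgeR called the siMRTF-A effect different between the arms in 1 of the 192 members (0.521%), in the negative direction. Of all tested transcripts 0.13% were called lower and 0.166% higher, and 1 call is too few to set the members apart from these shares. This member had from 50.8 to 68.7 CPM in siPC1 and from 55.2 to 70.2 CPM in siPC1+siMRTF-A, a log2 fold change of 0.01 between these groups. It had from 24.9 to 29.3 CPM in siPC2 and from 35.9 to 50.003 CPM in siPC2+siMRTF-A, a log2 fold change of 0.68. The interaction was -0.67 (SE 0.15, edgeR adjusted p = 0.0473). DESeq2 also called it. The edgeR call was kept when siNR replicate 1 or 4, siPC1 replicate 2 or siPC2+siMRTF-A replicate 3 was left out and lost in the other 16 fits that left out 1 library, with adjusted p from 0.0116 to 0.1496 over the 20. It was also lost with library totals, with the other filter, with the replicate block and without the 2 libraries of lowest total (adjusted p = 0.1393, 0.0608, 0.0548 and 0.0607).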

How the results depend on the processing

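The rule found 154 transcripts with a pseudocount of 1, 169 with TMM-scaled totals, 169 with a minimum mean CPM of 5, 192 with none, 187 with siPC1 replicate 1 kept in the separation, 197 with it left out and, chosen after seeing the data, 203 without the 2 libraries of lowest total. Leaving out each library in turn gave 188 to 242. In the same fits, members higher and lower ranged from 24 to 39 and stayed at 3 on adding siMRTF-A to siPC1, from 1 to 7 and 0 to 1 on adding it to siPC2, from 37 to 57 and 2 to 7 for siPC1 against siPC2, from 44 to 62 and 1 to 2 for siPC1+siMRTF-A against siPC2+siMRTF-A, and from 0 to 1 and 0 to 3 for the interaction. The counts of members higher on adding siMRTF-A to siPC1 and higher in either siPC1 arm stayed within 1.5 times of 34, 52 and 57 in all alternatives, with 26, 42 and 55 without the 2 libraries of lowest total. The counts over all tested transcripts moved as well. On adding siMRTF-A to siPC1, 267 of 27570 were higher without siPC1+siMRTF-A replicate 2, the fit that gave 24 members. Without siNR replicate 1, the fit that gave 39, 339 of 27500 were higher.

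The small counts moved more, and the cause was not tested. Without a fold threshold, 5 members were lower on adding siMRTF-A to siPC1, 8 lower in siPC1 than in siPC2 and 2 lower in siPC1+siMRTF-A than in siPC2+siMRTF-A. Over all 27702 tested transcripts these counts were 1077, 3305 and 2135. DESeq2 called 10 higher and 2 lower on adding siMRTF-A to siPC2, 8 lower in siPC1 than in siPC2, 2 lower in siPC1+siMRTF-A than in siPC2+siMRTF-A, and 6 and 4 in the interaction. Over all tested transcripts DESeq2 called 297 and 333, 1678, 924, and 130 and 141 in the same order. With library totals 2 were lower in siPC1+siMRTF-A than in siPC2+siMRTF-A and 0 were called in the interaction, as with the other filter (0). Without the 2 libraries of lowest total, 1 was higher on adding siMRTF-A to siPC2, 2 lower in siPC1 than in siPC2 and 0 in the interaction. With the replicate block, 7 were higher on adding siMRTF-A to siPC2 and 0 were called in the interaction. Same-numbered libraries of different groups correlated in their deviations from -0.07 to 0.38 over 36 pairs, with a mean of 0.07 and 7 over 0.1. The 123 pairs of unlike number had a mean of -0.01, with 13 over 0.1, and 7 of 19 libraries were most like their own number. The mean was thus higher for same-numbered pairs, though not every such pair was above 0.1. The main fits did not pair the libraries by number, and the replicate block is given as the alternative. Whether some same-numbered libraries were prepared together was not tested.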
